A study of Arabidopsis thaliana with 9 samples.

Results

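The comparison described here sets the HDA6 amino acid substitution mutant of Arabidopsis thaliana against the double transformant, across all probe sets of the ATH1 array, including those to which the annotation used here gives no gene name. Its members are 6 of the 9 arrays in the series, 3 titled amino acid substitution and 3 titled double transformant, and they were chosen by those titles alone. The 3 remaining arrays, titled null mutant, served for the test of whether a difference was particular to the substitution. Whole Col-0 plants were used in every group, grown under constant light at 21 ºC on plates of Murashige and Skoog salts for 35 days. The sources of the substitution and the null mutant arrays both read rts1-1 and name an EMS-induced HDA6 mutation, while the source of the double transformant arrays reads Columbia. RefSeq lists RTS1, for RNA-mediated transcriptional silencing, as a synonym of HDA6. The constructs of the double transformant, and whether the mutants carry them too, are not given in the sources used here. Whether each group is 1 line is not given either. The night humidity recorded for double transformant 1 was 35%, against 53% for every other array, and the titles of substitution 3, null mutant 1 and double transformant 1 end in rpt, a mark the labels do not explain.

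HDA6 encodes a histone deacetylase, an enzyme that removes acetyl groups from histone tails. In Arabidopsis it works together with DNA methylation to keep transgenes, transposable elements and repeated sequences silent, and it also acts on single-copy genes of flowering and stress response. EMS is a chemical mutagen that causes base changes, and a null mutant is one without a working gene product, whereas an amino acid substitution leaves a protein with a changed residue.

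Of the 22746 probe sets tested, 13513 had a single gene in the annotation, 503 had several and 8730 (38.4%) were unnamed here. The probe set for HDA6 itself was among the unnamed ones, so its level, and with it a check of the labels on the mutated gene, was not analysed here. Signals were MAS5 intensities scaled by the authors to a common trimmed mean, with array medians between 31.8 and 36.8. Precision is limited by the small number of arrays. The correlation of log2 signals between arrays of a group was 0.972 to 0.977 in the substitution, 0.945 to 0.963 in the null mutant and 0.956 to 0.974 in the double transformant. Double transformant 3 and null mutant 3 stood apart from the rest, with the lowest array weights (0.572 and 0.551). Their 3' to 5' ratios were the highest of the 9 arrays for the GAPDH control (2.15 and 1.95) and the lowest for actin (10.1 and 11.1, against 12.4 to 22.5), and for ubiquitin (3.21 and 3.57) they were neither the highest nor the lowest. Nothing in the labels states that replicates were separate cultures, and p-values then measure only the variation among these arrays, which may be of a technical kind. RCA, which encodes Rubisco activase, was the 1 measured leaf marker of 7 and lay at signals of 4590 to 6310 in the substitution, 4120 to 7420 in the null mutant and 4840 to 8540 in the double transformant. In whole plants, fewer cells of a type and less RNA per cell cannot be told apart.

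In the substitution arrays, transcripts that were at or near background in the double transformant were present at high signals, led by AT1G58025, the starch gene QQS and the pseudogene AT2G04770, while the largest falls were those of the cell wall genes XTH33 and EXLA1. By limma, at a Benjamini-Hochberg adjusted p under 0.05, 141 probe sets rose (0.62% of those tested) and 29 fell (0.127%). The null mutant mean lay on the same side of the double transformant mean in all 141 rises and all 29 falls. Both mutant groups are compared with the same double transformant arrays, so this is partly built in. The median log2 difference over all probe sets was -0.0031. Differences are on the scale log2(signal + 4.03), which understates changes at signals close to or under that offset, and each is substitution minus double transformant with its standard error unless another contrast is named. The rises had a median of 1.65 (quartiles 1.07 and 2.31), and 49 of them exceeded 2 and 19 exceeded 3. At least 2-fold changes on this scale were reached by 111 rises (0.488% of probe sets tested) and 16 falls (0.0703%). Among the falls the median size was 1.05, 5 exceeded 2, and none exceeded 3. For all 170 called probe sets the substitution and double transformant arrays did not overlap, as was the case for 19.2% of all probe sets tested, 10.6% with the substitution higher and 8.6% with it lower.

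**Figure D1:**
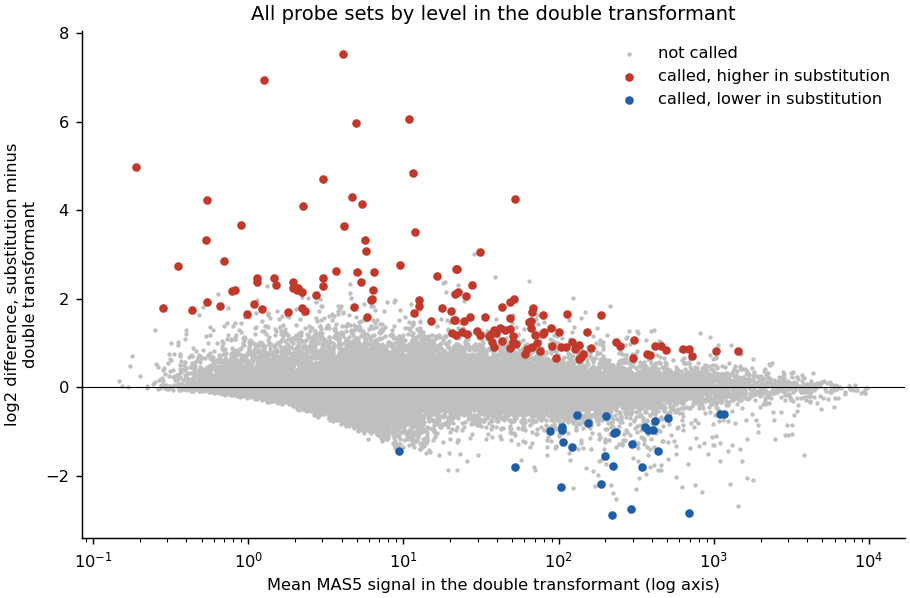
Log2 difference, substitution minus double transformant (vertical axis), against the mean MAS5 signal in the double transformant (horizontal axis, log scale) for each of 22746 probe sets. The 141 rises (red) spread over all levels with the largest at low double transformant signals, and 22 of the 29 falls (blue) lie above a double transformant signal of 114.

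The rises are described next by their level in the double transformant. That level is a term of the difference, and low, noisier signals need a larger difference to be called, so that the order of the medians is partly built in. In 34 of the rises the double transformant mean was at or below the offset of 4.03, and these had a median log2 difference of 2.27 and substitution means from 11.0 to 641. Another 44 rises had a double transformant mean between 4.03 and 34.1, the median of all values, with a median difference of 2.08 and substitution means from 25.3 to 1287. With double transformant means between 34.1 and 114 there were 40 rises with a median of 1.21, and with means above 114, the upper quartile of all values, 23 with a median of 0.859. Set against the number of probe sets at each level, rises made up 0.821%, 0.6%, 0.724% and 0.401% from the lowest to the highest, so they were found at every level. Pseudogenes, a class in which RefSeq also places transposable element genes, gave 15 of the rises from the lowest level and 9 from the next, and none from the upper levels. The number of pseudogene probe sets at each level was not counted, so these counts may only follow where the class lies. A low starting level bounds a fall from below, and falls numbered 0, 1, 6 and 22 from the lowest to the highest level. As shares of the probe sets at each level these were 0%, 0.0136%, 0.109% and 0.383%, the last close to the 0.401% of rises there. The rest of the text goes through the largest rises, the cell wall genes, the falls, the gene lists and the contrast with the null mutant.

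AT1G58025, a protein-coding locus with no symbol in the annotation, showed the largest rise of all probe sets called. Its signals were 1363, 1179 and 1319 in the substitution arrays, 468, 665 and 366 in the null mutant arrays, and 0.969, 0.694 and 10.5 in the double transformant arrays. The substitution arrays lay above all others, and the difference from the double transformant was 7.52 ± 0.36 (limma adjusted p = 8.26e-07). QQS, the Qua-Quine Starch gene that acts in starch metabolism and is known for epigenetically variable expression, had 913, 1071 and 996 in the substitution, 861, 1049 and 1064 in the null mutant, and 9.63, 12.6 and 10.6 in the double transformant. Here both mutant groups overlapped at a common high level and the double transformant stood far below, with a difference of 6.06 ± 0.13 (limma adjusted p = 3.19e-10). AT2G04770, a pseudogene, had 561, 581 and 437 in the substitution, 136, 112 and 215 in the null mutant, and 0.768, 6.82 and 7.19 in the double transformant, with no overlap among the 3 groups and a difference of 5.98 ± 0.32 (limma adjusted p = 2.06e-06). Its probe set carries the suffix that marks probes shared between related sequences, so that the signal may not belong to this locus alone.

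The protein-coding locus AT4G29200 gave signals of 173, 152 and 179 in the substitution, 45.2, 50.2 and 65.1 in the null mutant, and 7.1, 0.855 and 1.16 in the double transformant. As with AT2G04770, the 3 groups were apart with the substitution on top, and AT4G29200 rose by 4.71 ± 0.31 (limma adjusted p = 1.24e-05). AT5G01080 was at 164, 168 and 149.8 in the substitution, 102, 86.1 and 81.2 in the null mutant, and 7.08, 1.78 and 5.12 in the double transformant. This locus had the same order of groups and a difference of 4.29 ± 0.24 (limma adjusted p = 2.87e-06).

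The reverse order between the mutants was seen at AT5G41660, AT5G07570 and the pseudogene AT2G04000. AT5G41660 had 94.9, 91.0 and 103 in the substitution, 160.2, 164 and 161 in the null mutant, and 5.65, 3.92 and 2.79 in the double transformant. The substitution arrays thus lay between the other groups without overlap, 3.64 ± 0.19 above the double transformant (limma adjusted p = 1.81e-06). AT5G07570 had 64.1, 46.4 and 63.7 in the substitution, 104, 86.9 and 123 in the null mutant, and 0.295, 0.415 and 1.97 in the double transformant. AT2G04000, read from a shared probe set, averaged 82.2 ± 6.17 in the substitution, 122 ± 29.2 in the null mutant and 0.545 ± 0.0772 in the double transformant (SD, n = 3 each). At both loci the null mutant arrays lay above the substitution arrays without overlap.

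At 5 further loci the mutant groups overlapped at a high level. AT5G26270 reached the highest of these, with 1113, 1021 and 988 in the substitution, 1249, 835 and 997 in the null mutant, and 43.1, 40.8 and 72.1 in the double transformant. Its rise was 4.26 ± 0.20 (limma adjusted p = 7.62e-07), from a double transformant level that was the highest among the 15 largest rises. AT2G15560 averaged 441 ± 27.9 in the substitution, 529.7 ± 109 in the null mutant and 11.5 ± 1.73 in the double transformant (SD, n = 3 each), a rise of 4.85 ± 0.16 (limma adjusted p = 1.76e-08). AT5G24240 varied little between substitution arrays, at 100.5 ± 3 against 2.26 ± 1.89 in the double transformant (SD, n = 3 each), and rose by 4.09 ± 0.25 (limma adjusted p = 4.88e-06). AT5G45570 varied more, with 92.0, 207 and 110.1 in the substitution against 0.223, 0.151 and 0.194 in the double transformant, and rose by 4.97 ± 0.31 (limma adjusted p = 5.99e-06). AT5G03090 rose by 3.51 ± 0.31 to 163 ± 19.5 in the substitution, against 11.9 ± 8.23 in the double transformant (SD, n = 3 each; limma adjusted p = 0.000142). The last of the 15 largest rises with a single gene were AT1G59930, from a shared probe set (4.14 ± 0.34), and the pseudogene AT2G26630 (3.33 ± 0.25).

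**Figure D2:**
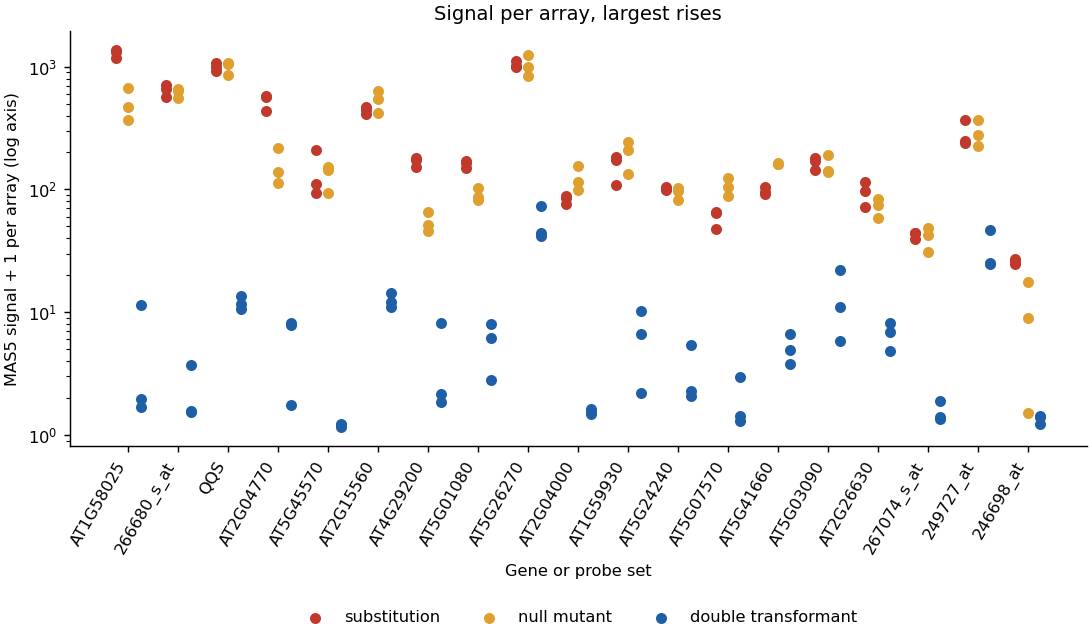
MAS5 signal plus 1 per array (vertical axis, log scale) for the 15 largest rises with a single gene and the 4 largest without one, in order of their log2 difference; points are substitution (red), null mutant (orange) and double transformant (blue) arrays. The substitution arrays lie above the double transformant arrays at every probe set shown, and the null mutant arrays lie below the substitution at AT1G58025, AT2G04770, AT4G29200, AT5G01080 and 246698_at.

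All 15 kept their call in each of the 9 fits that left out 1 array. Whether the substitution differed from the null mutant at these loci was tested in the same limma fit, in which none of the 15 was called and 7 had an unadjusted p under 0.05. Against the null mutant, AT1G58025 was higher by 1.40 ± 0.36 (limma adjusted p = 0.468), AT2G04770 by 1.78 ± 0.32 (limma adjusted p = 0.171) and AT4G29200 by 1.59 ± 0.31 (limma adjusted p = 0.224). AT5G41660 differed from the null mutant by -0.72 ± 0.19 (limma adjusted p = 0.498). Over all 141 rises, 0 were called against the null mutant by limma, 45 had an unadjusted p under 0.05, and in 46 the substitution arrays lay above the null mutant arrays without overlap, against 9 with the reverse. Of all probe sets tested, 6.36% had an unadjusted p under 0.05 in this contrast and 5.6% lay above the null mutant without overlap. The rises were selected with the same substitution arrays, so that these counts are a description and not a test.

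Probe sets without a single named gene made up 45 of the rises, 43 of them unnamed and 2 with several genes, and unnamed probe sets rose in 0.493% of cases, against 0.71% of those with a single gene and 0.398% of those with several. Counting falls too, 0.63% of unnamed and 0.836% of single-gene probe sets were called. Probe set 266680_s_at was the second largest rise of all, at 563, 706 and 653 in the substitution, 627, 552 and 662 in the null mutant, and 0.566, 0.534 and 2.7 in the double transformant. The mutant groups overlapped and the double transformant was near background, giving a difference of 6.95 ± 0.17 (limma adjusted p = 9.77e-10). Probe set 267074_s_at rose by 3.32 ± 0.29 to 41.5 ± 2.71 in the substitution, against 0.538 ± 0.291 in the double transformant (SD, n = 3 each; limma adjusted p = 0.000142). Probe set 249727_at rose by 3.06 ± 0.25 to 283 ± 71.1 in the substitution, against 31.1 ± 12.4 in the double transformant (SD, n = 3 each; limma adjusted p = 8.92e-05).

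The fourth of these, 246698_at, had 23.8, 25.3 and 26.3 in the substitution, 0.511, 7.9 and 16.5 in the null mutant, and 0.43, 0.224 and 0.397 in the double transformant. The null mutant arrays were spread over the gap between the other groups, and the difference of 2.73 ± 0.47 (limma adjusted p = 0.0264) lost its call in 6 of the 9 fits without 1 array, those without any substitution or double transformant array.

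Cell wall genes moved in both directions. Expansins loosen the cell wall during growth, and 19 were measured, of which 2 rose and 1 fell (15.8% called, against 0.747% of all probe sets), with a median log2 difference of 0.364 over the list against -0.0031 over all probe sets. This list, like the others, was chosen with earlier results of these data known, so its share is a description and not a test. EXPA8, an alpha-expansin, had 577, 548 and 554 in the substitution, 450.4, 442 and 399.6 in the null mutant, and 274, 129 and 157 in the double transformant. All 3 groups were apart, and EXPA8 rose by 1.63 ± 0.21 (limma adjusted p = 0.00459). EXPA9, another alpha-expansin, had 93.5, 82.3 and 84.4 in the substitution, 45.4, 58.4 and 49.5 in the null mutant, and 32.6, 20.8 and 27.0 in the double transformant. It showed the same order without overlap and rose by 1.57 ± 0.20 (limma adjusted p = 0.00414). Both kept their call whichever array was left out, and neither was called against the null mutant (limma adjusted p = 0.837 and 0.561).

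The expansin-like gene EXLA1, of the same list, went the other way. Its signals were 70.2, 43.3 and 162 in the substitution, 202, 158 and 264 in the null mutant, and 326, 1172 and 560.5 in the double transformant. Substitution 3 and double transformant 1 came nearest to each other without an overlap between their groups, and the difference was -2.85 ± 0.47 (limma adjusted p = 0.0221). Of the other expansins, EXPB3 differed by 1.16 ± 0.26 (limma adjusted p = 0.0724), EXPA4 by 0.71 ± 0.19 (limma adjusted p = 0.126) and EXLA2 by -1.87 ± 0.72 (limma adjusted p = 0.322).

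Xyloglucan endotransglucosylases cut and rejoin the xyloglucan chains that tie cellulose fibres together. Of 10 measured, 0 rose and 1 fell, against 0.62% and 0.127% of all probe sets, and the median was -0.236. XTH33, the member that fell, had 19.8, 15.1 and 37.5 in the substitution, 39.5, 74.7 and 62.6 in the null mutant, and 92.2, 343 and 225 in the double transformant. The 3 groups were apart, with the widest spread in the double transformant, and the difference was -2.89 ± 0.43 (limma adjusted p = 0.0126). EXGT-A3 averaged 752 ± 279 in the substitution and 1631 ± 238 in the double transformant (SD, n = 3 each; difference -1.16 ± 0.27, limma adjusted p = 0.0924). XTH16 differed by -1.75 ± 0.72 (limma adjusted p = 0.358). The calls of both XTH33 and EXLA1 were lost without double transformant 2, double transformant 3, substitution 1 or substitution 2, with differences between -3.40 and -2.48 for XTH33 and between -3.35 and -2.37 for EXLA1 over the 9 fits.

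AT4G16870, a pseudogene, AT4G16563 and AT3G02200 were the falls that kept their call in all 9 fits without 1 array, 3 of 29, whereas 37 of the 141 rises did so. AT4G16870 had 19.4, 19.1 and 16.6 in the substitution, 14.1, 13.1 and 21.6 in the null mutant, and 85.1, 102 and 123 in the double transformant. The mutant groups overlapped at the low level, and the difference was -2.25 ± 0.25 (limma adjusted p = 0.0013). AT4G16563, a protein-coding locus, had 36.5, 36.2 and 34.0 in the substitution, 53.8, 62.8 and 69.9 in the null mutant, and 112, 268 and 178 in the double transformant. Here the groups were apart in the order substitution, null mutant, double transformant, and the difference was -2.18 ± 0.26 (limma adjusted p = 0.00206).

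AT3G02200 differed from both other groups. Its signals were 142, 191 and 135 in the substitution, 398, 368 and 488 in the null mutant, and 331, 481 and 492 in the double transformant. The substitution arrays lay below all others, while the null mutant and the double transformant overlapped. AT3G02200 fell by 1.45 ± 0.18 on the log2 scale against the double transformant (limma adjusted p = 0.00396), and by 1.41 ± 0.18 in the contrast with the null mutant (limma adjusted p = 0.0259). It was the 1 probe set called in both contrasts. In AT1G67865 the substitution was also the lowest group, with 72.2, 108 and 108 in the substitution, 409.5, 155 and 547 in the null mutant, and 282, 377 and 366 in the double transformant. The substitution arrays lay below all others, but the null mutant arrays spread widely, and the difference was -1.80 ± 0.36 against the double transformant (limma adjusted p = 0.0493, lost in 7 of 9 fits without 1 array) and -1.75 ± 0.36 against the null mutant (limma adjusted p = 0.257).

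The 15 largest falls with a single gene were completed by loci without symbols. AT1G09500 averaged 11.8 ± 4.26 in the substitution, 27.6 ± 9.04 in the null mutant and 52.0 ± 17.9 in the double transformant (SD, n = 3 each), a difference of -1.80 ± 0.33 (limma adjusted p = 0.0336). AT1G11380 differed by -1.56 ± 0.29 and AT1G22550 by -1.35 ± 0.24 (limma adjusted p = 0.0338 and 0.0284). AT3G26614, a pseudogene, had 0.741, 0.586 and 0.931 in the substitution, 1.16, 1.82 and 2.21 in the null mutant, and 13.3, 7.76 and 7.03 in the double transformant. It was the 1 fall from a double transformant level under 34.1, its mutant levels were near background, and the difference was -1.46 ± 0.29 (limma adjusted p = 0.0471). AT3G50560 (-1.25 ± 0.25), AT4G38225 (-0.96 ± 0.16), AT1G68585 (-0.91 ± 0.17), AT3G55430 (-0.76 ± 0.14) and AT5G10460 (-0.65 ± 0.13) were the smallest of them. Of the 15, 12 lost their call in at least 1 fit without 1 array: 12 without each of double transformant 2, double transformant 3, substitution 1 and substitution 2, 8 without substitution 3, 5 without double transformant 1, and 4, 2 and 1 when null mutant 1, 2 or 3 was left out.

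Unnamed probe sets fell in 0.137% of cases against 0.126% of those with a single gene. Probe set 249765_at had 42.1, 18.5 and 53.1 in the substitution, 59.6, 49.2 and 48.8 in the null mutant, and 129.5, 428 and 316 in the double transformant, a difference of -2.76 ± 0.41 (limma adjusted p = 0.0121). The mutant groups overlapped, and double transformant 1 was again the lowest of its group. Probe sets 254042_at (-1.78 ± 0.25), 257202_at (-1.28 ± 0.23) and 252234_at (-1.05 ± 0.18) fell as well, and all 4 lost their call in some fit without 1 array.

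**Figure D3:**
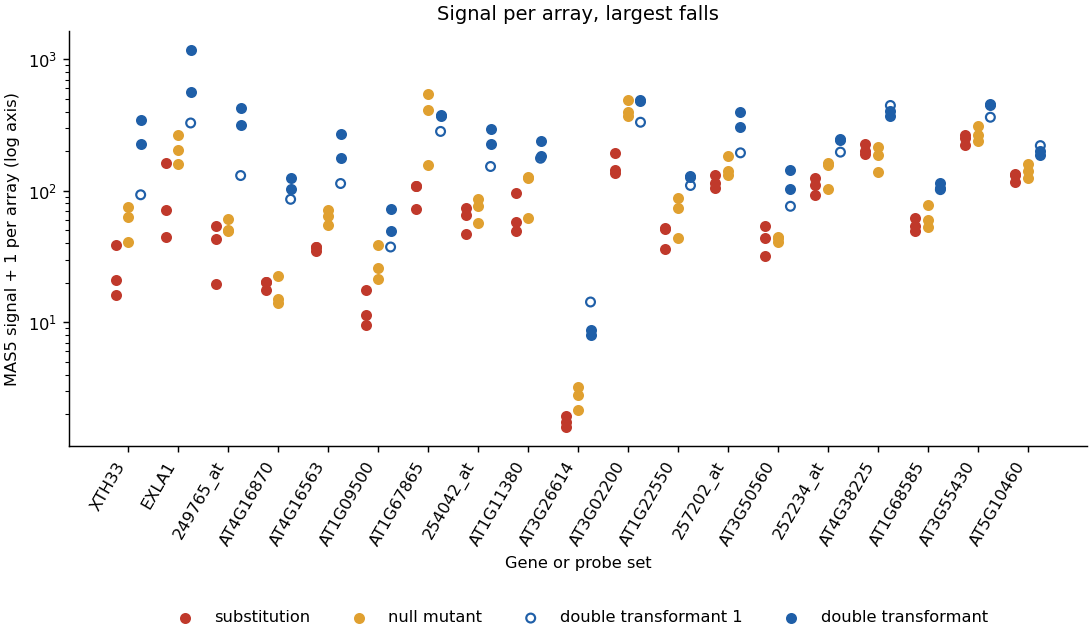
MAS5 signal plus 1 per array (vertical axis, log scale) for the 15 largest falls with a single gene and the 4 largest without one, in order of their log2 difference; points are substitution (red), null mutant (orange) and double transformant arrays (blue, with double transformant 1 open). The substitution arrays lie below the double transformant arrays throughout, and double transformant 1 is the lowest of its group at 16 of the 19 probe sets.

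Double transformant 1 moved with the falls. It was the lowest array of its group, and so the nearest to the substitution, in 22 of the 29 falls (75.9%), against 33.4% of all probe sets, and double transformant 2 was the highest in 16, against 25% of all probe sets. This is the array with the lower night humidity and 1 of the 3 with rpt in the title, and the part of either in the falls was not tested. Without double transformant 1 there were 62 falls and 150 rises. In the rises double transformant 1 was the highest array of its group in 44.7%, against 32.1% of all probe sets.

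The number of calls varied with the array left out, and each of these fits also had fewer arrays to test with. Leaving out substitution 1, 2 or 3 gave 52, 46 or 78 calls, leaving out double transformant 2 or 3 gave 55 or 71, and the other 4 such fits gave 179 to 212. Rises outnumbered falls in each of these fits, with 42 to 166 rises and 4 to 62 falls. When the 3 arrays with rpt in their titles were left out, there were 175 rises and 195 falls, of which 99 calls in all were shared with the 170, so that the predominance of rises was not seen there.

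**Figure D4:**
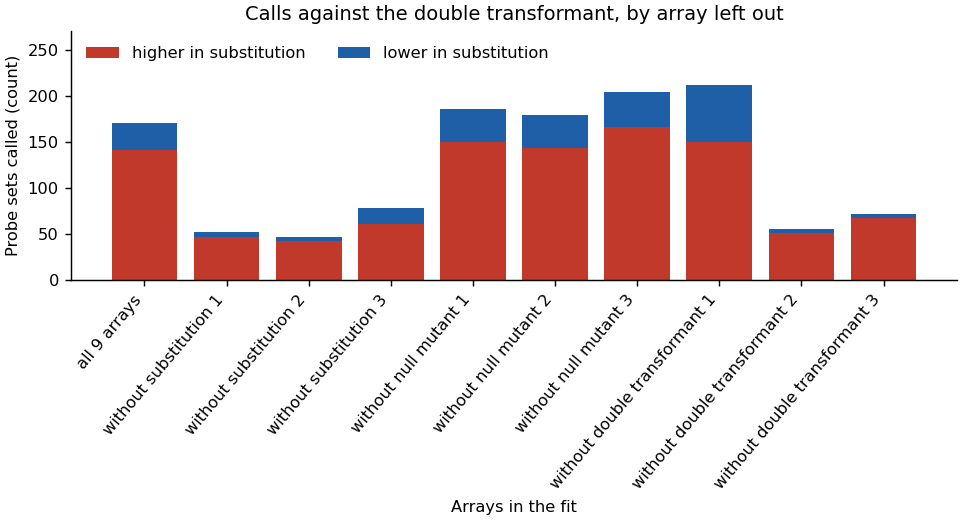
Number of probe sets called against the double transformant (vertical axis) with all 9 arrays and with each array left out in turn (horizontal axis); bars stack rises (red) and falls (blue). The total lies between 46 without substitution 2 and 212 without double transformant 1.

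Of genes with known functions in seeds, M17, a late embryogenesis abundant gene, rose. Its signals were 67.6, 80.5 and 72.5 in the substitution, 36.9, 57.2 and 65.2 in the null mutant, and 10.5, 5 and 1.81 in the double transformant. The substitution arrays lay above all others, and the difference from the double transformant was 3.08 ± 0.34 (limma adjusted p = 0.00129), kept in all 9 fits without 1 array. It was 1 of 3 measured members of a seed and embryo list of 26, whose median was 2.37. PAP85, a seed storage gene and the 1 measured seed marker of 10, was at 71.4 to 122 in the substitution, 31.5 to 146 in the null mutant and 4.65 to 34.7 in the double transformant, a difference of 2.37 ± 0.55 (limma adjusted p = 0.0901). Whether plants differed in seed content was not tested. OLEO3, for an oil body protein, differed by 0.39 ± 0.37 (limma adjusted p = 0.76).

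The markers of other organs were near background or few. Of 10 pollen and tapetum markers 4 were measured, with summed signals of 3.22 to 9.69 in the substitution, 2.73 to 13.0 in the null mutant and 6.28 to 38.0 in the double transformant. Of 11 root markers 2 were measured, with sums of 3.17 to 9.48 in the substitution, 4.14 to 15.5 in the null mutant and 5.05 to 14 in the double transformant, and of 7 floral organ markers none was measured. None of the organ markers was called.

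Of 192 genes measured in 26 lists, 5 were called (2.6%, against 0.747% of all probe sets), and their median log2 difference was 0.021. The 5 were EXPA8, EXPA9 and M17 among the rises and EXLA1 and XTH33 among the falls. XTH33 was also the 1 called gene of 4 in the touch and wound list, whose median was 1.08. None of the 192 was called against the null mutant. Since the lists were chosen with earlier results of these data known, these shares are a description and not a test.

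In the 22 lists with measured members and no call, the genes nearest to the threshold were those of flowering and stress. GI, which acts in the circadian clock and in flowering, had 484, 465 and 398 in the substitution, 486, 461 and 358 in the null mutant, and 293, 224 and 296 in the double transformant. Its substitution and double transformant arrays did not overlap, with a difference of 0.73 ± 0.15 (limma adjusted p = 0.0569). SNZ, a repressor of flowering, differed by 0.97 ± 0.59 (limma adjusted p = 0.572), and the 5 flowering genes measured had a median of 0.083.

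Of 4 abscisic acid, drought and cold genes, with a median of 1.28, none passed. COR15B, for a cold-induced chloroplast protein, had 959, 918 and 906 in the substitution, 2238, 929 and 1242 in the null mutant, and 451, 449 and 277 in the double transformant (difference 1.27 ± 0.28, limma adjusted p = 0.0696). Its relative COR15A had 382, 446 and 458 in the substitution, 2606, 505 and 1195 in the null mutant, and 108, 262 and 161 in the double transformant (difference 1.34 ± 0.47, limma adjusted p = 0.27). For both genes the substitution arrays lay above the double transformant arrays and were close together, whereas null mutant 1 stood above the rest. LTI30, a dehydrin gene, differed by 1.30 ± 0.49 and COR47, another dehydrin gene, by -0.61 ± 0.25 (limma adjusted p = 0.309 and 0.368).

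UGT72E1, a glucosyltransferase gene among 50 measured genes of oxidative stress and detoxification with a median of 0.076, differed by 1.07 ± 0.23 (limma adjusted p = 0.0651). WRKY53, a regulator of leaf senescence, had 36.2, 16.2 and 14.8 in the substitution, 12.3, 3.96 and 0.813 in the null mutant, and 2, 4.38 and 2.59 in the double transformant. Substitution 1 was the highest, and the difference was 1.84 ± 0.47 (limma adjusted p = 0.12). Medians lay close to that of all probe sets for 28 photosynthesis genes (0.03), 7 histone genes (-0.035), 7 WRKY factors (-0.018), 3 jasmonate and ethylene genes (0.02), 2 glucosinolate genes (0.049) and 3 genes of acetate metabolism and fermentation (0.056). They were lower for 16 ribosomal protein genes (-0.144), 12 auxin genes (-0.108), 3 meristem genes (-0.165), 2 root genes (-0.224) and 5 pollen and tapetum genes (-0.568). They were higher for 6 genes of the anthocyanin and flavonoid list (0.291), 3 floral organ genes (0.269) and 4 senescence genes (0.105). The highest of those 6, AT2G43570 (0.772), is a chitinase gene matched through the symbol CHI. The median of that list is therefore not one of flavonoid genes alone. Of 4 measured genes of silencing and chromatin, with a median of -0.284, LDL2, for a histone demethylase, differed by -0.83 and HDA15, another histone deacetylase gene, by -0.42, and none passed. The salicylic acid, heat and nutrient lists had 1 measured gene each, none of which passed.

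**Figure D5:**
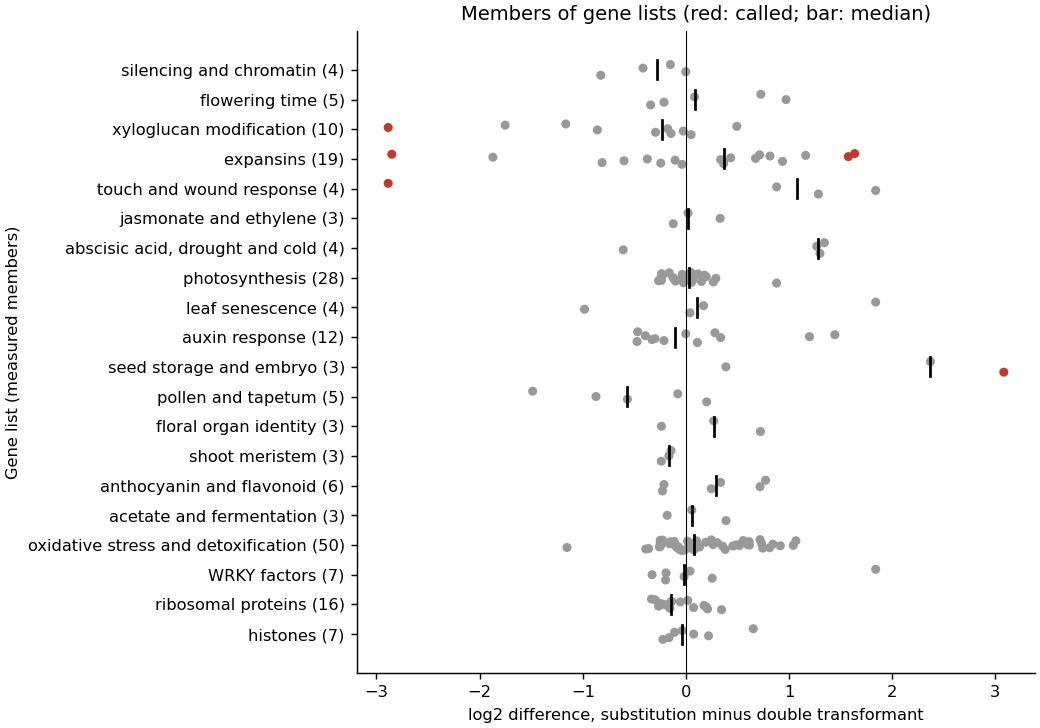
Log2 difference, substitution minus double transformant (horizontal axis), of each measured member (points) of the gene lists with at least 3 measured members (rows, number of members in brackets); red points are called and black bars mark medians. The called points are EXPA8, EXPA9 and M17 on the right and EXLA1 and XTH33, the second of which stands in 2 lists, on the left.

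Among the 23 rises of transcripts already above a signal of 114 in the double transformant were several genes with symbols, named here after their values were seen. LCR69, which encodes a low-molecular-weight cysteine-rich protein of the defensin type, had the highest substitution level of all rises. Its signals were 2575, 2356 and 2553 in the substitution, 2097, 2215 and 1935 in the null mutant, and 1526, 1442 and 1299 in the double transformant. The groups were apart in that order, with a difference of 0.81 ± 0.13 (limma adjusted p = 0.0221). BGLU44, a beta-glucosidase gene, averaged 1178 ± 147 in the substitution, 934 ± 85.5 in the null mutant and 723 ± 21.9 in the double transformant (SD, n = 3 each; difference 0.69 ± 0.13, limma adjusted p = 0.031). The serine carboxypeptidase-like gene scpl25 showed the smallest rise called, 0.63 ± 0.12 (limma adjusted p = 0.0425). Of these 23 rises 1, EXPA8, kept its call in all 9 fits without 1 array.

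Further symbol-bearing genes rose from lower levels, and these too were named after their values were seen. The serine carboxypeptidase-like gene scpl35 averaged 147 ± 11.3 in the substitution, 77.5 ± 23.3 in the null mutant and 48.6 ± 15.3 in the double transformant (SD, n = 3 each; difference 1.56 ± 0.25, limma adjusted p = 0.0188). SUFE2, for a protein of iron-sulfur cluster assembly, averaged 35.5 ± 8.08 in the substitution and 6.16 ± 2.95 in the double transformant (SD, n = 3 each; difference 1.98 ± 0.33, limma adjusted p = 0.0227). REM22, a gene of the reproductive meristem family, rose by 1.79 ± 0.32 and DI21, a drought-induced gene, by 0.82 ± 0.16 (limma adjusted p = 0.0282 and 0.0493). All 4 lost their call in some fit without 1 array.

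By annotation class, 24 of 989 pseudogene probe sets rose (2.43%) and 2 fell, while 72 of 12443 protein-coding probe sets rose (0.579%) and 14 fell. Probe sets whose suffix marks probes shared between sequences rose more often than plain ones, 9 of 126 with the suffix _x_at (7.14%) and 12 of 935 with _s_at (1.28%), against 120 of 21685 with the plain suffix (0.553%). Shared probe sets may count 1 transcript several times, and these shares carry no test. By chromosome, rises made up 1.04% of measured loci on chromosome 5 (31 rises), 0.83% on chromosome 2 (18), 0.809% on chromosome 3 (22), 0.469% on chromosome 1 (16) and 0.465% on chromosome 4 (9). Falls with a located gene numbered 7 of 3411 measured loci on chromosome 1, 5 of 2720 on chromosome 3 and 3 of 1935 on chromosome 4. There was 1 among 2981 loci on chromosome 5 and none among 2169 on chromosome 2, against falls in 0.127% of all probe sets. These counts are too small to set chromosomes apart.

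Set directly against the null mutant, the substitution differed at 9 probe sets by limma (0.0396%), 1 higher and 8 lower, and 1447 had an unadjusted p under 0.05. AT3G16670 was the 1 higher probe set, with 214, 258 and 178 in the substitution, 20.3, 64.3 and 17.7 in the null mutant, and 129.9, 68.0 and 94.5 in the double transformant. The double transformant lay between the mutant groups without overlap, and the substitution exceeded the null mutant by 2.72 ± 0.38 (limma adjusted p = 0.0356) and the double transformant by 1.15 ± 0.38 (limma adjusted p = 0.236). AT3G02200 was the 1 lower probe set that had also fallen against the double transformant.

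At the other 7 the null mutant arrays lay above those of both other groups. AT5G39590 had 593, 641 and 606 in the substitution, 1241, 1337 and 1238 in the null mutant, and 758, 668 and 769.6 in the double transformant. Its substitution arrays differed from the null mutant by -1.05 ± 0.11 (limma adjusted p = 0.00678) and from the double transformant by -0.25 ± 0.11 (limma adjusted p = 0.386). For AT5G39410, AT5G40190, 249393_at, 249396_at, 249421_at and 249453_at the differences from the null mutant ran from -1.26 to -0.86 and those from the double transformant from -0.21 to 0.42, none of which was called. No probe set was called against the null mutant without null mutant 3, substitution 1 or substitution 3 by limma, and 48 were called without null mutant 2.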

How the data were processed

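Per the labels' protocols, RNA was extracted with a Qiagen RNeasy kit and the 3' IVT Express kit was used for labelling. The deposited intensity values are linear MAS5 signals, 1 per probe set and array. The tools, per the submitters' processing notes, were MAS5 and GCOS. Their versions are not given in the sources used here. With 2% trimmed from both ends, the mean signal was 100.01 in every array, so the authors had scaled the arrays to a common level. Detection calls were not used here, and the lowest signals lie near background.

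Of 22810 probe sets, 64 controls were left out. Signals were transformed as log2(signal + 4.03), the offset being the 20th percentile of all values. All 9 arrays, grouped by title, entered 1 model in limma 3.58.1 (R 4.3.3) with 3 group means and empirical Bayes moderation with an intensity trend, checked on simulated arrays. A call is a Benjamini-Hochberg adjusted p under 0.05 over 22746 probe sets. Names come from an older platform annotation. They were matched by gene ID to RefSeq (TAIR10.1) for 13436 of the 13513 probe sets with a single gene, and 13286 loci were represented. HDA6, FLC, FWA and ROS1 are not analysed here.

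The text names the 15 largest rises and falls with a single gene, the 4 largest of each without one, every probe set called against the null mutant, and from each of 27 lists up to 3 called members (where none was called, the 1 or 2 of smallest p). The list of MYB factors had 0 measured members. The comparison, the lists and this rule were chosen with earlier results of these data known. Other genes named were chosen after their values were seen. Alternatives covered the offset, dim probe sets, normalization, moderation, array weights, blocks, the arrays in the fit and the threshold, and the joint removal of double transformant 3 and null mutant 3 was added after seeing the data.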

Additional observations from a re-analysis of the deposited data

Results flagged for a closer look

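At 9 probe sets the effect differed between the 2 mutant groups, by the limma contrast of the substitution with the null mutant (log2 difference, substitution minus null mutant). AT3G16670 differed by 2.72 (limma adjusted p = 0.0356), the substitution arrays being higher in 3 of 3. AT3G02200 differed by -1.41 (adjusted p = 0.0259). The remaining 7 were lower in all 3 substitution arrays: 249396_at by -1.26, 249453_at by -1.12 and AT5G39590 by -1.05 (adjusted p = 0.00678 each), 249421_at by -1.11, AT5G39410 by -0.95 and 249393_at by -0.90 (adjusted p = 0.0259 each), and AT5G40190 by -0.86 (adjusted p = 0.033). Both groups were compared with the same double transformant arrays. None of the 9 was called against the null mutant without null mutant 3, substitution 1 or substitution 3.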

How the results depend on the processing

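Calls against the double transformant numbered 170. They were 88 without an intensity trend, 373 with array weights, 370 without the 3 rpt arrays, 38 without moderation of the variance, 73 when double transformant 3 and null mutant 3 were both left out, and 47 at an adjusted p under 0.01. Leaving out 1 array gave 46 to 212. Apart from a fit with the replicate number as a block, given below, the other alternatives gave 121 to 213. The labels state no pairing by replicate number, and the main fit used none. Deviations of arrays of the same number had correlations from -0.0409 to 0.154, the highest between null mutant 3 and double transformant 3. Arrays of different numbers were not compared in this way, and whether replicates of a number share an effect was not tested. A fit with the replicate number as a block gave 321 calls, 210 higher and 111 lower, of which 163 were shared with the 170. Calls against the null mutant numbered 9. They were 5 with arrays centred on their medians or with a block for the rpt titles, 0 without an intensity trend, without moderation, or with both double transformant 3 and null mutant 3 left out, 18 without the rpt arrays, 4 with the 6 arrays compared, 3 at an adjusted p under 0.01, and 0 to 48 without 1 array; with the replicate block there were 7. Of the 86 probe sets named by the rule, only AT5G40190 changed sign in the difference from the double transformant, where its value was near zero. It was 0.020 after quantile normalization, 0.046 without double transformant replicate 2 and 0.082 without substitution replicate 2. Its range was -0.049 to 0.082 over the fits without 1 array. Of the 41 of these that were called, the call was lost by 22 without moderation, 16 at an adjusted p under 0.01 and 15 without a trend. It was lost by 6 without the rpt arrays and 0 with array weights or the smaller offset. Genes named after their values were seen are not in these counts. The cause of these shifts was not tested, beyond fewer arrays where arrays were left out. Signals near background, where the double transformant mean of 34 rises lay, limit how exactly the size of those rises is known.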

Other observations

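Some called genes lie close together in the gene order of the TAIR10.1 annotation, which was looked for after the values were seen and was not tested. How many such pairs would arise by position alone among this many called genes was not worked out, so the pairs are a description only. The pseudogene AT4G16870 fell (-2.25), while AT4G16880, 2 genes further on, rose by 1.03 ± 0.19 (limma adjusted p = 0.0373). AT4G16880 had signals of 107, 92.0 and 79.2 in the substitution and 50.7, 43.4 and 35.5 in the double transformant, so that neighbours moved in opposite directions. The call of AT4G16880 was lost in 6 of 9 fits without 1 array, whereas that of AT4G16870 was kept in all 9. AT5G34895 (1.77) and AT5G34920 (2.85), 6 genes apart, AT2G29290 (0.84) and AT2G29320 (0.92), 3 apart, AT1G59930 (4.14) and AT1G59960 (0.90), 3 apart, and AT2G15510 (2.37) and AT2G15560 (4.85), 8 apart, rose together in pairs. The pseudogenes AT5G34895 and AT5G34920, and AT1G59930, were read from shared probe sets, so that their signals may not belong to these loci alone. Of the genes in these pairs, only AT5G34920, AT1G59930 and AT2G15560 kept their call in all 9 fits without 1 array.

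AT5G22580, also chosen after its values were seen, had 389, 365 and 315 in the substitution, 172, 177 and 139 in the null mutant, and 138, 115 and 84.9 in the double transformant. It differed by 1.64 ± 0.17 from the double transformant (limma adjusted p = 0.000854) and by 1.11 ± 0.17 from the null mutant (limma adjusted p = 0.0878).

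Of the probe sets lower than in the null mutant, AT5G39410, AT5G39590 and AT5G40190 belong to a run on chromosome 5. The bounds of this run were set after the values were seen, around probe sets already called lower in this contrast, so its counts are a description. Over 15 genes of at least median level from AT5G39250 to AT5G40190, the median log2 difference of the substitution was -0.88 from the null mutant, with 15 of 15 below zero and 14 without overlap (6.06% of all probe sets lay below the null mutant without overlap), and 0.071 from the double transformant, with 9 above zero and 6 below. AT5G39850, of the same run, had 99.2, 107 and 114 in the substitution, 189, 179.9 and 189 in the null mutant, and 63.6, 52.4 and 42.1 in the double transformant. It was the 1 gene of the run called against the double transformant (0.98 ± 0.15, limma adjusted p = 0.0159), a call lost in 4 of 9 fits without 1 array.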
